A study of Mus musculus with 24 samples.

Results

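Cdx2 binding was described around 7 mouse genes of xenobiotic handling: Nr1i2, which encodes the pregnane X receptor (PXR), the 5 efflux transporter genes Abcb1a, Abcb1b, Abcg2, Abcc2 and Abcc3, and the cytochrome P450 gene Cyp3a13. The genes were named as a set, with earlier results of these data known. Their sites were taken by position, not by a measured value. A Cdx2 site was a region of overlapping peaks with at least 1 peak summit in the body of a member gene or within 50 kb to either side of it (mm10, genes of GENCODE vM21). By this rule 52 of the 61454 Cdx2 regions found in the 12 libraries belonged to the 7 genes, out of 21938 protein-coding genes. These 52 sites held 262 peaks, and 1 of them lay in the windows of both Abcb1a and Abcb1b.

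The libraries were made by ChIPmentation, in which immunoprecipitated chromatin is tagged with sequencing adapters by a transposase, with an antibody to Cdx2, the homeobox factor of the intestinal epithelium. Colon organoids from the proximal and the distal end of the colon of 3 female mice, 8 weeks of age, had been grown for 4 months in WENR-plus medium, which supplies Wnt3a, EGF, Noggin and R-spondin 1. Organoids of the WENR-plus groups stayed in this medium, and those of the WENR-minus groups had 2 days of it after plating and then 3 days without those factors. The 12 Cdx2 libraries form 4 groups of 3, each end of the colon in each medium, and all groups carried a heterozygous Cre-inducible BrafV600E allele and a heterozygous tdTomato reporter. The labels name no Cre treatment.

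The labels call the replicates biological, but do not say which replicate numbers come from 1 mouse. The p-values of the rank comparisons therefore measure the spread between these cultures, and those of Fisher's exact test compare counts of libraries with a peak. In both, cultures with the same number were treated as independent. The lists held 5608 to 42192 peaks. The deposited lists give no read depth, and the depths stated by the study were not used here, so the number of peaks stands for their size. No input library was analysed here beyond its use by the authors in the peak calls. Peak lists of a single factor hold no expression values, so the labelled tissue could not be checked against marker genes. In bulk cultures, binding in fewer cells and weaker binding per cell cannot be told apart.

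PXR is a nuclear receptor that binds drugs, bile acids and other foreign or endogenous compounds, pairs with the retinoid X receptor, and raises the expression of genes for oxidation, conjugation and export. Abcb1a and Abcb1b encode the mouse P-glycoproteins and Abcg2 the breast cancer resistance protein, ATP-driven pumps that return drugs to the gut lumen. Abcc2 encodes MRP2, an apical exporter of conjugated compounds, and Abcc3 encodes MRP3, an exporter of the basolateral membrane. Cyp3a13 encodes an oxidising enzyme of the CYP3A family. Cdx2 binds AT-rich DNA of the TTTAT type and is known for its role in intestinal identity.

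The sequences below are those of the member sites called in all 12 lists, of the best-covered sites of Nr1i2 and Abcc3, and of the 2 sites with the clearest differences in rank between groups. Each is the plus strand of GRCm38 (mm10) from 50 bp before to 50 bp after the median summit, and the site is named by its distance from the gene start in the direction of transcription. Capitals mark TTTATGA or TTTATGG or TTTATTA or TTTATTG, searched on both strands, which are the forms of the Cdx2 motif used here.
Nr1i2 +92.1 kb, chr16:38202697-38202797: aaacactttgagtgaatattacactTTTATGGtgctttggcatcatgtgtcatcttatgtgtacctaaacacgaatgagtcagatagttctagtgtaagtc
Abcb1a -25.4 kb, chr5:8634673-8634773: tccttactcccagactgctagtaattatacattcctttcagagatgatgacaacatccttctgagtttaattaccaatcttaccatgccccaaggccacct
Abcb1a -11.1 kb, chr5:8648902-8649002: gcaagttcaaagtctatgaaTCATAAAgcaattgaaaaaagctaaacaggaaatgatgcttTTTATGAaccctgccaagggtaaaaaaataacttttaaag
Abcb1a +4.9 kb, chr5:8664880-8664980: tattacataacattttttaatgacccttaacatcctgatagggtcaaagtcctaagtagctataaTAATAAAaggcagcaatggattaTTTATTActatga
Abcb1a +7.9 kb, chr5:8667953-8668053: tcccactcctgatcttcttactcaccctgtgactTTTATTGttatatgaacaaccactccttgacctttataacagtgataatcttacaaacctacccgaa
Abcb1a +12.3 kb, chr5:8672280-8672380: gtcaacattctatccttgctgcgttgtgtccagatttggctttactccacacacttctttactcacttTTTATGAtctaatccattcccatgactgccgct
Abcg2 -38.7 kb, chr6:58545811-58545911: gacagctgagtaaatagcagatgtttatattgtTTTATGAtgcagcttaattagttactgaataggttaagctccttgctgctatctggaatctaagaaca
Abcg2 +76.8 kb, chr6:58661284-58661384: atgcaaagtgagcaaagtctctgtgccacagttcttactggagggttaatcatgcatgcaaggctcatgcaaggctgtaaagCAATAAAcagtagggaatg
Abcc2 -14.3 kb, chr19:43767810-43767910: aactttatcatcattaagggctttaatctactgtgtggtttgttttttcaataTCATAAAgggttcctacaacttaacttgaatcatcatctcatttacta
Abcc3 +2.9 kb, chr11:94390045-94390145: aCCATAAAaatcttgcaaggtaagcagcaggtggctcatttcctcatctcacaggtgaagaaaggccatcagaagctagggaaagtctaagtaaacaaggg
Cyp3a13 -19.5 kb, chr5:137941050-137941150: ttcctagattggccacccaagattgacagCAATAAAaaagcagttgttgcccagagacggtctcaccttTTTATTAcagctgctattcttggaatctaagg
Each of the 7 sites called in all lists held at least 1 Cdx2 motif in this window, against 73.2% of all regions called in all lists. Of the 52 member sites, 29 (55.8%) held one, against 60.4% of all 61454 regions. Among the members' sites called in 1 list, 5 of 16 (31.3%) held it, against 51.7% of all regions called in 1 list. The Abcb1a -25.4 kb and Cyp3a13 -21.6 kb sites, each called in 11 lists, held none. A match describes these letters and does not show that the factor bound them.

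Binding in the windows was very uneven among the genes. Abcb1a had 16 sites, 6 of them called in at least 10 lists and 4 in all 12. Abcg2 had 10 sites with 1 in all lists, Abcc2 had 6 with 1, and Cyp3a13 had 5 with 1. Nr1i2 with 7 sites, Abcb1b with 5 and Abcc3 with 4 had none called in as many as 10 lists. A region called in all lists thus lay in the windows of 4 of the 7 members, while 12.9% of protein-coding genes had one in windows set the same way, and the members' windows, 129 to 211 kb, were longer than the median of 117 kb.

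**Figure D1:**
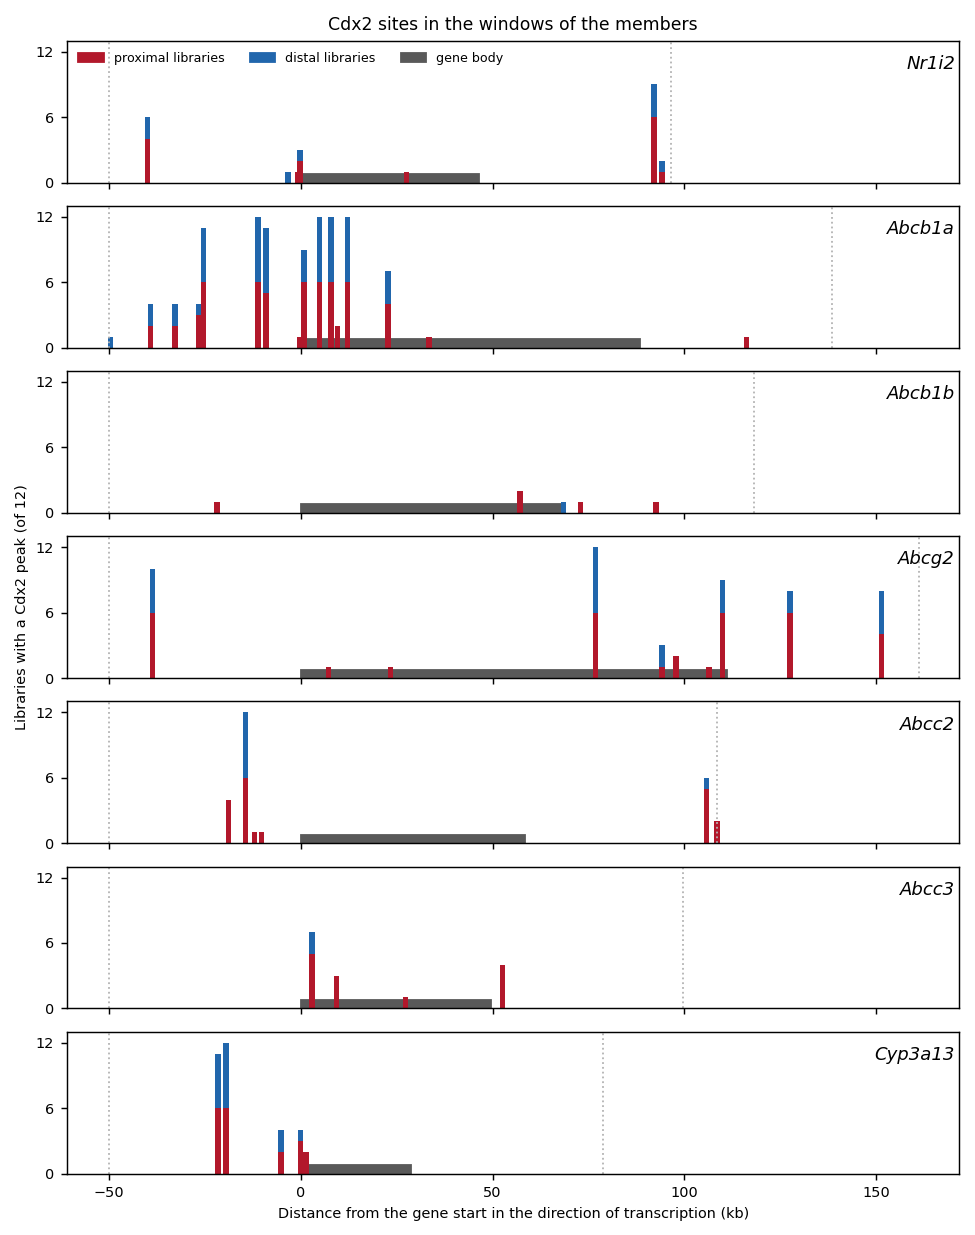
Cdx2 sites by distance from the start of each member gene, in kb in the direction of transcription. Bar height is the number of libraries with a peak, of 12, with proximal libraries in red and distal libraries in blue, grey blocks are gene bodies and dotted lines the window ends. Abcb1a holds a row of tall bars from 25.4 kb upstream to 12.3 kb downstream of its start, while Abcb1b has none above 2 libraries.

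Of the 52 sites, 21 lay within 3 kb of a start of any annotated gene, 15 in introns, 2 in exons and 14 between genes. Of the 52, 17 lay inside, or within 3 kb of a start of, a gene that is no member. Sites called in all 12 lists made up 7 of 52 (13.5%), against 3.38% of all regions, and sites called in 1 list made up 16 of 52 (30.8%), against 42.2%.

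Nr1i2 (chr16:38248323-38294824, minus strand, 1 transcript) had weak Cdx2 binding at its own start. A site 225 bp upstream of the start, Nr1i2 -0.2 kb, was called in 3 of 12 libraries, in proximal WENR-plus replicate 2 at 3.76-fold over the local input, in proximal WENR-minus replicate 3 at 4.27-fold and in distal WENR-minus replicate 3 at 5.09-fold. These peaks sat low in their lists, between percentiles 10.7 and 29.3 of fold enrichment. The best-covered site of the window, Nr1i2 +92.1 kb, lay in an intron of Gsk3b, a kinase gene of the Wnt pathway, 5.3 kb from the Gsk3b start, and was called in all 6 proximal and 3 of 6 distal libraries. Its fold enrichment was 6.34, 6.27 and 6.26 in proximal organoids with WENR-plus and 7.25, 6.72 and 6.29 with WENR-minus medium. In distal organoids it was 5.76 in 1 WENR-plus library, and 4.73 and 5.59 in 2 WENR-minus libraries. Every proximal value was above every distal one, with no peak in the other 3 distal libraries. In percentiles the overlap was also nil, with 51.0 to 80.4 in proximal and 22.6 to 45.5 in distal libraries, on lists that were longer in the proximal groups. With every list cut to its 5608 peaks of highest −log10 q, the length of the shortest, the site was called in 1 proximal and 1 distal library.

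Abcb1a (chr5:8660077-8748575, plus strand) had the densest binding of the set. Among all protein-coding genes 1.59% had as many as 16 sites in their window, and 45 genes (0.205%) had as many as 4 sites called in all lists. In lists cut to equal length 7 of the 16 sites were left, 2 of them in all lists. Its strongest site, Abcb1a +4.9 kb, lay in an intron. There the fold enrichment was 14.9, 22.6 and 15.3 in proximal organoids with WENR-plus and 21.5, 14.9 and 18.1 with WENR-minus medium, and 12.8, 8.87 and 12.8 and then 13.9, 11.5 and 12.8 in distal organoids with the same media. Proximal libraries had the higher fold values, but fold is set against each library's own depth and input. Within its own list the site stood between percentiles 82.0 and 99.0, with a median of 95.8, so it was among the stronger peaks of every library.

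The other 3 Abcb1a sites called in all lists were more variable. At Abcb1a -11.1 kb, upstream and between genes, the percentile ran from 39.7 to 95.2 with a median of 87.9. At Abcb1a +7.9 kb it ran from 12.4 to 97.1 with a median of 84.8, and at Abcb1a +12.3 kb from 22.6 to 95.5 with a median of 85.9. Both downstream sites are in the body of Abcb1a, and also within 3 kb of the start of, or inside, the noncoding gene Gm42684. The best-covered site within 3 kb of the start, Abcb1a +0.9 kb, was called in 9 libraries, all 6 proximal ones, 1 distal library in WENR-plus and 2 in WENR-minus medium. It was weaker, at 4.60- to 9.51-fold.

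Abcb1b (chr5:8798147-8866315, plus strand) lies next to Abcb1a and encodes the same kind of pump, but had little binding. Its 5 sites drew 6 calls in all, 5 of them proximal. The best-covered one, Abcb1b +57.2 kb, was called in proximal WENR-plus replicate 2 at 5.02-fold and in proximal WENR-minus replicate 1 at 4.03-fold. These are the longest lists of their groups, with 42192 and 27921 peaks. In 8 libraries the whole window held no peak.

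Abcg2 (chr6:58584523-58695676, plus strand) had a site inside the gene called in all 12 libraries and an upstream site called in 6 proximal and 4 distal libraries. Abcg2 +76.8 kb, called in all lists, lay 2.1 kb from the start of a retained-intron transcript and 20.8 kb from the nearest start of a coding transcript. By the first of these starts it counts as a site within 3 kb of a start, which 1.28% of protein-coding genes had in all lists. Its fold enrichment was 11.7, 14.4 and 10.6 in proximal organoids with WENR-plus and 18.5, 12.0 and 13.7 with WENR-minus medium, and 8.82, 7.82 and 5.77 and then 9.89, 9.86 and 9.09 in distal organoids with the same media. Proximal fold values were all above the distal ones, while the within-list percentiles overlapped, at 84.5 to 98.1 and 31.6 to 92.5.

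The upstream site, Abcg2 -38.7 kb, was between genes and was called in 10 libraries. Its fold enrichment was 13.5, 10.7 and 15.3 in proximal organoids with WENR-plus and 11.6, 12.6 and 13.7 with WENR-minus medium, and 4.83, 8.26 and 7.25 in distal organoids with WENR-plus and 5.02 in replicate 1 with WENR-minus. Distal WENR-minus replicates 2 and 3 had no peak there. In within-list percentiles the proximal libraries stood at 92.4 to 96.1 and the distal ones at 9.8 to 78.8, with no overlap. The printed window of this site occurs 7 times in the GRCm38 genome, and how reads that match several places were handled is not given in the sources used here. Of the other sites, Abcg2 +127.5 kb was called in 6 of 6 proximal and 2 of 6 distal libraries. Abcg2 +109.9 kb, in the last part of the gene, was called in 6 and 3, and Abcg2 +151.4 kb in 4 and 4. Abcg2 +94.2 kb lay 1.1 kb from the start of a retained-intron transcript. It was called in 1 proximal library at 4.44-fold and in 2 distal ones at 3.94- and 4.84-fold. In lists cut to equal length Abcg2 +127.5 kb had 4 and 0, and Abcg2 +109.9 kb 5 and 1. Abcg2 +151.4 kb then had 0 and 2, and Abcg2 +94.2 kb was not left.

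Abcc2 (chr19:43782192-43840740, plus strand) had no site inside the gene or within 3 kb of its start. Its site in all 12 lists, Abcc2 -14.3 kb, lay in Cutc, 3.0 kb from the Cutc start. The fold enrichment there was 10.5, 10.03 and 12.0 in proximal organoids with WENR-plus and 5.57, 9.20 and 13.7 with WENR-minus medium, and 8.82, 7.91 and 5.48 and then 10.01, 6.84 and 9.44 in distal organoids with the same media. The groups overlapped, with a median percentile of 86.2. Abcc2 -18.9 kb was called in 4 proximal libraries and no distal one, and Abcc2 +105.8 kb, at Dnmbp, in 5 proximal and 1 distal. In lists cut to equal length neither of these sites was left.

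Abcc3 (chr11:94343295-94392997, minus strand) had its best-covered site 2.9 kb downstream of the start. Abcc3 +2.9 kb was called in 7 libraries, in proximal WENR-plus at 6.34-, 6.58- and 6.65-fold, in proximal WENR-minus replicates 1 and 3 at 5.10- and 5.55-fold, and in replicates 2 and 3 of distal WENR-plus organoids at 7.55- and 6.83-fold. No distal WENR-minus library had it. In lists cut to equal length its direction turned, with 0 proximal and 2 distal libraries. Abcc3 +52.7 kb, near Ankrd40, was called in 4 proximal libraries and no distal one, at 3.60- to 4.44-fold. It was not left in lists cut to equal length.

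Cyp3a13 (chr5:137892932-137921619, minus strand, 1 transcript) had a pair of strong sites upstream and weak ones at its start. Cyp3a13 -19.5 kb, between genes, was called in all lists, at 15.5-, 14.4- and 12.5-fold in proximal organoids with WENR-plus and 14.8-, 12.6- and 12.6-fold with WENR-minus medium, and 7.36-, 11.5- and 8.11-fold and then 11.3-, 8.28- and 7.39-fold in distal organoids with the same media. Its percentile was 89.6 to 97.4 in proximal and 68.0 to 95.2 in distal libraries, and the ranges overlapped. Cyp3a13 -21.6 kb was called in 11 libraries, all but distal WENR-plus replicate 3, at 5.13- to 13.7-fold. Its nearest coding start was that of Gjc3, at 19.9 kb. At the start, Cyp3a13 -0.1 kb was called in 4 libraries and Cyp3a13 +1.4 kb in 2, at 3.29- to 5.91-fold.

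**Figure D2:**
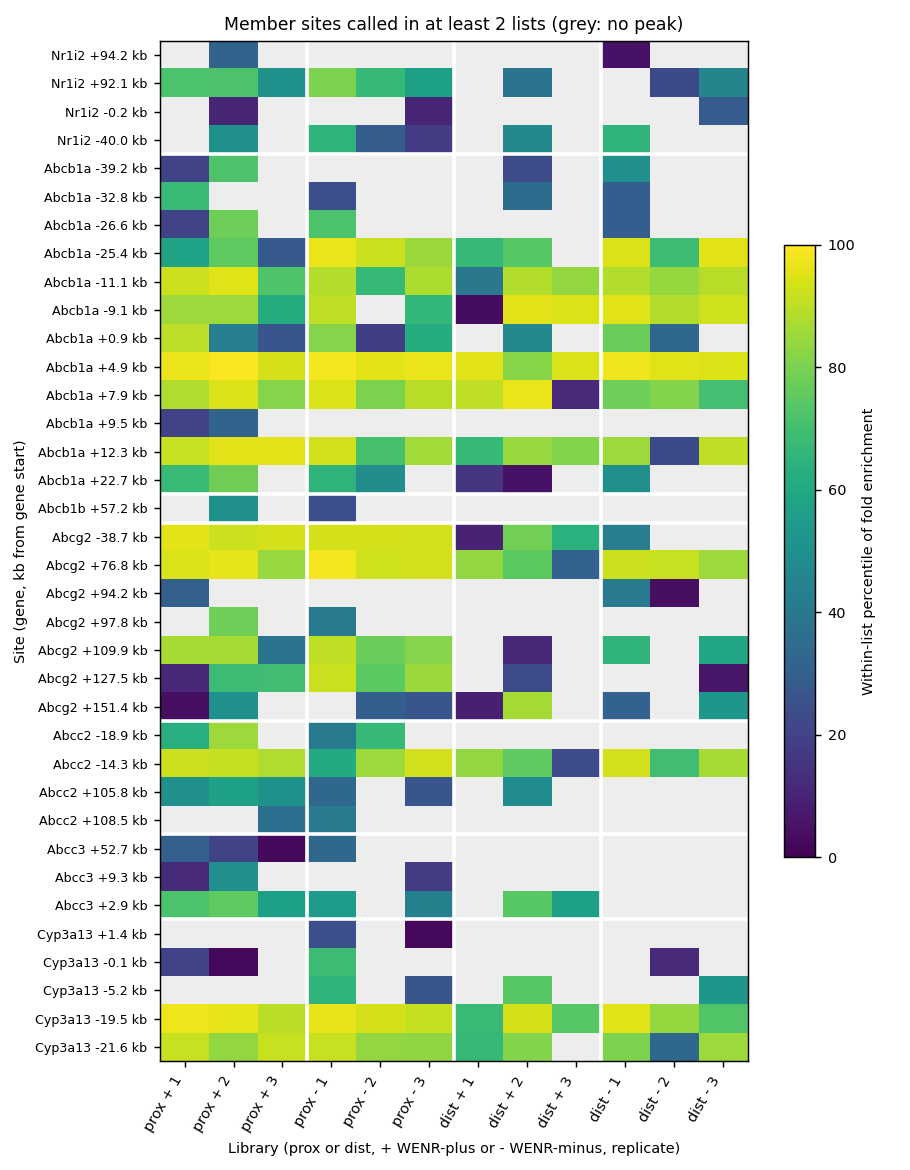
Within-list percentile of the fold enrichment (colour, 0 to 100) of the 36 member sites called in at least 2 lists, by library, with grey where a library had no peak. Abcb1a +4.9 kb is bright in every column, from 82.0 to 99.0, and Abcg2 -38.7 kb runs from 92.4 to 96.1 in the 6 proximal columns and from 9.8 to 78.8, with 2 grey cells, in the distal ones.

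The comparison of proximal with distal organoids asked where along the colon Cdx2 occupied these windows. The member sites drew 161 calls in proximal and 100 in distal libraries. Of the 36 sites called in at least 2 lists, 22 (61.1%) were called in more proximal than distal libraries, 2 (5.56%) in more distal ones and 12 in equal numbers. Over all regions called in at least 2 lists the shares were 76.3% and 5.89%. Of the 36 sites, 8 (22.2%) were called in proximal and in no distal library, against 34.4% of all such regions.

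List length moved with this excess of proximal calls. The proximal lists held 11409 to 42192 peaks and the distal ones 5608 to 21040. The member sites called were 30, 35 and 19 in proximal organoids with WENR-plus and 35, 19 and 23 with WENR-minus medium, and 13, 24 and 10 and then 22, 15 and 16 in distal organoids with the same media. With the lists cut to equal length, 18 member sites were left, 6 called more often in proximal libraries, 6 more often in distal ones and 6 equally. The calls were then 73 proximal and 66 distal, and the member sites per library 10 to 15 and 8 to 14. At equal length Abcb1b had no site left, and Nr1i2 kept the +92.1 kb site alone.

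**Figure D3:**
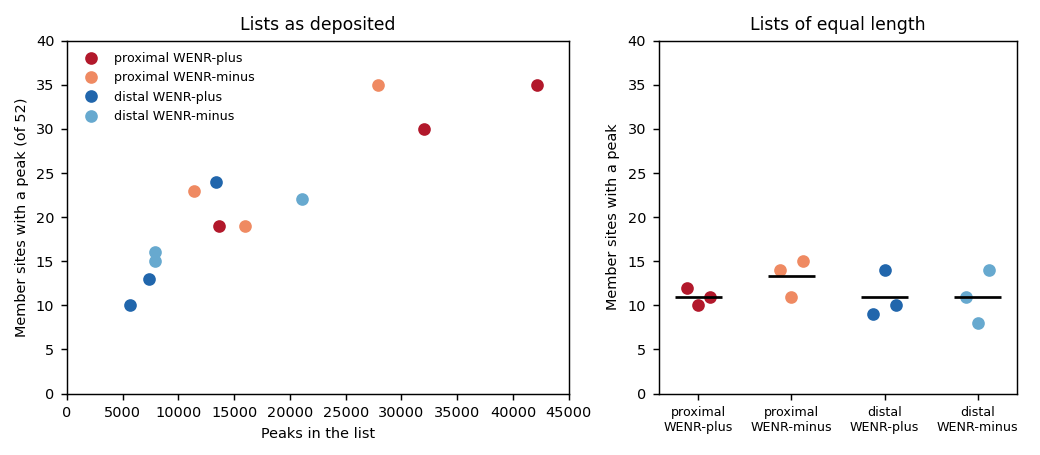
Member sites with a peak, of 52, against the number of peaks in the list for the 12 libraries (left), and the same count with every list cut to 5608 peaks, by group with a line at the mean (right). The longest lists hold the most member sites, up to 35, and at equal length the counts run from 8 to 15 and overlap between groups.

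Fisher's exact test on the numbers of libraries with a call, two-sided and per region, called no member site at p under 0.05 between proximal and distal organoids, 0 of 36, while 5.24% of all regions passed without adjustment and none after Benjamini-Hochberg adjustment. The nearest was Abcg2 +127.5 kb with 6 against 2 libraries, at an exact p of 0.0606 (0.582 after adjustment). Abcc2 -18.9 kb and Abcc3 +52.7 kb, each with 4 against 0, had the same exact p of 0.0606. Between media no member site passed either, 0 of 36, with 0.189% of all regions passing without adjustment and none after it. The lowest exact p was 0.242, at Abcc3 +2.9 kb with 5 WENR-plus and 2 WENR-minus libraries. With 6 libraries on each side, no site called in 4 or fewer lists, or in 8 or more, could reach p under 0.05. Most of the 36 member sites were of these kinds, so their result was fixed in advance in both comparisons. The counts of 0 of 36 beside the shares of all regions are therefore no finding about the members.

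To compare strength on a scale that list length does not set, the fold enrichment was ranked within each library among regions shared by the lists, and normal scores of the ranks were compared with limma. A rank percentile of 100 is the strongest shared region of a library. Over the 2079 regions called in all 12 lists, 10.6% differed between proximal and distal organoids at an adjusted p under 0.05, 0.481% between media, and 0% in how the medium effect differed between ends of the colon. None of the 7 member sites among them was called in any of the 3 comparisons, and the lowest adjusted p values were 0.323, 0.175 and 0.996. Without adjustment 0, 1 and 0 of the 7 had a limma p under 0.05, and so had 510, 316 and 96 of all regions.

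Abcb1a +4.9 kb ranked high in both parts of the colon, at 77.6 ± 8.92 in proximal and 73.8 ± 22.1 in distal libraries (SD, n = 6 each). Its difference of 0.09 in normal scores (SE 0.28) was within the spread between libraries (limma, adjusted p = 0.893). Cyp3a13 -19.5 kb stood at 62.6 ± 5.99 and 49.7 ± 12.8, a difference of 0.33 (SE 0.22, adjusted p = 0.384). Abcg2 +76.8 kb stood at 59.8 ± 14.7 and 44.9 ± 23.9, a difference of 0.44 (SE 0.26, adjusted p = 0.323). The same Abcg2 site had the lowest adjusted p between media. It ranked at 39.0 ± 19.5 in WENR-plus and 65.7 ± 10.5 in WENR-minus libraries (SD, n = 6 each). The difference was -0.75 in normal scores (SE 0.26, limma, adjusted p = 0.175). Set side by side by end of the colon and replicate number, it was lower in WENR-plus in 5 of 6 cases. No label says that such a number marks a mouse. Abcb1a -11.1 kb had the largest distal-ward value of the 7, 34.3 ± 15.0 against 46.4 ± 17.4, a difference of -0.32 (SE 0.27) with an adjusted p of 0.522. The median absolute difference of the 7 was 0.24 between ends of the colon and 0.23 between media, against 0.32 and 0.26 over all 2079 regions.

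A further 4 member sites were called in 10 or 11 lists and entered a wider comparison of 4550 regions called in at least 10. It was chosen after the data had been seen. Each region was placed, in the libraries with a peak, among the 2079 regions called in all 12 lists. In this comparison 9.05% of regions differed between proximal and distal organoids and 0.198% between media. Of the 11 member sites 1 was called, between ends of the colon, which is about the share of all regions. The site called was Abcg2 -38.7 kb. It ranked at 58.8, 34.6 and 67.6 in proximal organoids with WENR-plus and 45.9, 66.1 and 72.5 with WENR-minus medium. In distal organoids it ranked at 5.22, 23.7 and 33.3 with WENR-plus and 5.53 in the single WENR-minus library with a peak. The means of 57.6 ± 14.6 (SD, n = 6) in proximal and 16.9 ± 13.9 (SD, n = 4) in distal libraries came from values that did not overlap. The difference was 1.46 in normal scores (SE 0.35, limma, adjusted p = 0.0207). Without the replicate 2 libraries the adjusted p was 0.131, without replicate 3 it was 0.0446, and without replicate 1 it could not be fitted, since distal WENR-minus then had no value. The window has 7 copies in the genome, and the part of these copies in the difference was not tested.

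Abcb1a -25.4 kb had the lowest adjusted p of the 11 sites between media. It lies between genes, 11.8 kb from the start of Rundc3b, its nearest coding gene, and 25.4 kb from that of Abcb1a. It ranked at 4.11, 8.32 and 3.97 in proximal WENR-plus and at 68.9, 61.4 and 50.5 in proximal WENR-minus libraries. In distal libraries it stood at 36.8 and 16.9 in WENR-plus, with no peak in replicate 3, and at 62.9, 34.0 and 82.7 in WENR-minus. The media did not overlap in proximal libraries and overlapped in distal ones. Over both ends of the colon the means were 14.0 ± 13.8 (SD, n = 5) and 60.1 ± 16.6 (SD, n = 6), a difference of WENR-plus minus WENR-minus of -1.41 in normal scores (SE 0.29), with an adjusted p of 0.0730 by limma. With the replicate number as a block the adjusted p was 0.0346, and without 1 replicate, with no block, it was 0.151 to 0.576. In lists cut to equal length the site was called in 0 of 3 proximal libraries with WENR-plus and 3 of 3 with WENR-minus medium, and in 2 of 3 and 3 of 3 distal ones.

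The neighbouring Abcb1a -9.1 kb site ranked at 19.6 ± 7.25 (SD, n = 5) in proximal and 60.9 ± 29.5 (SD, n = 6) in distal libraries, but distal WENR-plus replicate 1, at 2.36, lay below every proximal library, and the adjusted p by limma was 0.170. Cyp3a13 -21.6 kb stood at 38.8 ± 14.9 (SD, n = 6) and 29.9 ± 16.3 (SD, n = 5), with an adjusted p of 0.695.

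**Figure D4:**
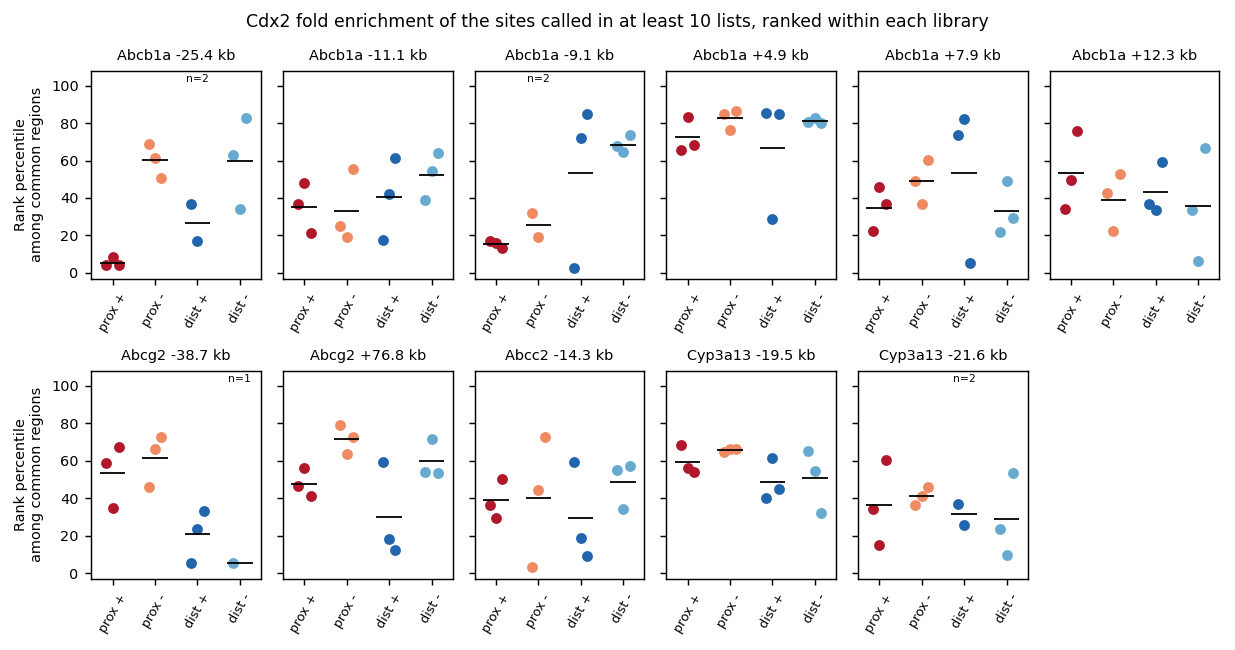
Rank percentile of fold enrichment within each library for the 11 member sites called in at least 10 lists, by group, with a point for each library and a line at the group mean. All 11 sites are placed among the 2079 regions called in all 12 lists. Abcg2 -38.7 kb has all its proximal points above its distal ones, and Abcb1a -25.4 kb has low proximal WENR-plus points, from 3.97 to 8.32.

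Other motifs were searched in the same windows on both strands, as a description. The AP-1 motif TGANTCA lay within 50 bp of the summit in 7 of 52 member sites (13.5%), against 6.35% of all regions, and it was present in Nr1i2 +92.1 kb, Abcc2 -14.3 kb and Abcb1a -11.1 kb. In the last of these it shares bases with a Cdx2 motif. The GATA motif AGATAA lay in 2 of 52, against 9.94%. The HNF4 motif CAAAGTCCA lay in none, against 0.449%. PXR and its relatives bind paired hexamers, searched as AGGTCA or AGTTCA or GGGTCA or GGTTCA within 250 bp of the summit. None of the 52 sites held such a pair as a direct repeat with 3, 4 or 5 bases between or as an everted repeat with 6, and the shares over all regions were 0.117%, 0.169%, 0.296% and 0.0797%. The absence of a pair says only that these letters are not in these windows.

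The wider pathway held 77 other genes of xenobiotic metabolism, listed by role. This list too was drawn up with earlier results of these data known. A region called in all lists lay in the windows of 22 (28.6%), against 12.9% of all protein-coding genes. By role these were 5 of 12 nuclear factors, 7 of 25 cytochrome P450 and other oxidation genes, 4 of 20 conjugation genes and 6 of 20 other transporters. Windows on this list ran up to 379 kb, against a median of 117 kb over all genes. Neighbours such as Ugt1a1 and Ugt1a7c share regions called in all lists and count separately. Within 3 kb of a start such a region was found for Hnf4a, a nuclear receptor of intestine and liver, and Cyp2c55, a cytochrome P450. Of the partners of PXR, Rxrb had 2 sites in all lists in its window, the nearer 46.6 kb from an Rxrb start. The mean best percentile of the Rxrb window was 96.7 over the 12 libraries, and the window of Rxra held no peak. Nr1i3, which encodes the related receptor CAR, had 3 sites, none in as many as 10 lists. Among the genes with the strongest windows were Ugt2b35, a glucuronosyltransferase, at 99.5, Cyp2c66 at 99.3, Slc10a2, the ileal bile acid importer, at 97.6, and Abcc4, a further exporter of the Abcc family, at 94.5.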

How the data were processed

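Cdx2 ChIPmentation libraries of 12 organoid cultures were used. Per the submitters' processing notes the tools were Trimmomatic 0.39, FastQC, Bowtie2 2.4.5, SAMtools 1.13, MACS2 2.2.7.1 and deepTools 3.5.1, with mm10 as the build. Following the study's methods, peaks were called per library against the matched input at a q-value of 0.01, after removal of duplicates. The deposited lists give for each peak the authors' score, the fold enrichment at the summit, a ratio of pileup to local background, and the −log10 of the p-value and of the q-value. Fold depends on the depth and input of each library, so it was used as a percentile within a list (0 to 100) or as a rank among shared regions.

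Peaks that overlapped by at least 1 bp on the autosomes, X and Y were merged into regions, and genes came from GENCODE vM21. A site is named by the median summit of its peaks. Libraries with a peak were compared by two-sided Fisher's exact test over regions called in at least 2 lists, and normal scores of ranks with limma 3.58.1 (R 4.3.3; group means, moderated variance), each with Benjamini-Hochberg adjustment over all regions tested. Both tests were tested on simulated data. Motifs were read from the GRCm38 genome. Other steps used Python 3.11.15, numpy 2.4.6, pandas 2.3.3, scipy 1.17.1 and matplotlib 3.10.9.

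Sites were named in full where called in at least 10 lists, where best covered for a gene, or where called in at least 2 lists within 3 kb of a member's start. Other sites that are named were chosen after their values were seen. The members and lists were chosen with earlier results of these data known. Alternatives were other windows (20 and 100 kb), lists cut to equal length or to a −log10 q of at least 5, joining by summits within 100 bp, other columns and scales, a replicate block and leaving out each replicate. The ranking of regions called in at least 10 lists was added after the data had been seen. Input libraries were not analysed here.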

Additional observations from a re-analysis of the deposited data

How the results depend on the processing

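The 52 member sites became 33 with peaks at a −log10 q of at least 5 and 18 in lists of equal length. The wider list had 14 genes with a region in all lists when the window was 20 kb. Regions with a Fisher p under 0.05 between ends of the colon, 1861 in all, fell to 506 in lists of equal length (348 more proximal, 158 more distal), to 0 with both libraries of an end of the colon and replicate number counted as 1, and to 984 to 1509 without 1 replicate. The fall to 0 was fixed in advance, since 3 against 3 gives a Fisher p of at least 0.1. Member sites passing, 0 of 36, became 1 at the stricter q (Abcg2 +127.5 kb) and 0 to 1 without 1 replicate (Abcc2 +105.8 kb without replicate 2, Abcc2 -18.9 kb without replicate 3). Between media the 67 regions became 40 to 113 without 1 replicate. The 220 regions with a rank difference between ends of the colon became 45 on within-list percentiles (43 higher in proximal and 2 higher in distal, against 116 and 104), 352 on log2 fold, 412 among regions of at least 10 lists, and 9 to 82 without 1 replicate. Member sites called by rank, 0 of 7, became 1 of 11 in that wider set. Between media the 10 regions became 4 on within-list percentiles, 16 on log2 fold, 39 on the −log10 q column, 22 with summit joining, 5 at the stricter q and 0 without any 1 replicate. Where the medium effect differed between ends of the colon, the count of 0 became 2 on within-list percentiles. For these changes the cause was not tested, beyond the fewer peaks or libraries that some settings hold.

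Of 138 rank differences of the 7 member sites under the alternatives, 15 changed sign, none passed, and the lowest adjusted p was 0.107. Replicate numbers were not taken as pairs, since no label says that a number marks a mouse. Deviations of same-numbered libraries correlated at 0.0265 to 0.441 (mean 0.227) between ends of the colon and at 0.00216 to 0.535 (mean 0.283) between media. For libraries of different numbers the values were -0.430 to 0.363 (mean -0.112) and -0.442 to 0.208 (mean -0.138). Of 12 libraries, 9 correlated best with their own number. The paper attributes most of the variation in Cdx2 sites to independent mouse groups. With the replicate block the Fisher counts stayed at 1861 and 67. They could not change, since in this design the blocked and the plain exact test pass the same splits of calls. Rank differences with the block became 302 between ends of the colon (166 higher in proximal, 136 higher in distal) and 61 between media. With it Abcg2 -38.7 kb had an adjusted p of 0.0113 between ends of the colon, and Abcb1a -25.4 kb 0.0346 between media, a call it lacks without the block. The lists give no reads, so a site without a peak may be bound below the calling threshold.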

Other observations

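The pattern of each member over the 12 libraries was set beside that of other protein-coding genes, by the highest within-list percentile of any peak in the window, with 0 where a library had none. The values share the length of each list, so the correlations are a description over 12 libraries. For Nr1i2 the most alike were Tbl1xr1 (Pearson r = 0.978) and Rpl39l (0.976). For Abcb1a, whose highest percentile was 94.4 to 99.0 in every library, they were Dkk3 (0.959) and Ubn2 (0.944). For Abcb1b they were Akr1b3 (0.901) and Skp2 (0.896), and for Abcc2 Trabd2b (0.899) and Eif4e3 (0.897). Abcg2 was most like Vmn2r104 and Fpr-rs7, both at 0.975, and Abcc3 most like Actg2 and Stambp, both at 0.970. For Cyp3a13 they were Adamts17 (0.983) and Rpl39l (0.982).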
